A study of Homo sapiens with 18 samples.

Results

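The genes described here encode the proteins of the mitochondrial ribosome that carry an MRPL or MRPS symbol. They were taken from the deposited gene tables as every row named MRPL or MRPS plus a number and at most one of the letters A, B or C, with pseudogene rows left out. The rule gave 77 genes of the 53853 rows, and all 77 passed the filter on low counts that left 18913 genes to test. By the published subunit assignments, 50 of the 77 encode proteins of the large subunit and 26 encode proteins of the small subunit. The remaining gene, MRPS36, is now described as a component of the 2-oxoglutarate dehydrogenase complex in spite of its symbol. One ribosomal gene, MRPL58, is listed in the tables under its older symbol ICT1 and therefore fell outside the rule.

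The study asked how reactive oxygen species bear on the transcriptional response of human cerebral organoids to repeated dopamine or cocaine. Organoids were grown from H9, a human embryonic stem cell line, and patterned from day 10 with 100 ng/mL of sonic hedgehog (SHH) and 1 µM purmorphamine, an activator of the hedgehog pathway. From day 83 they received daily 1 hour doses for 1 week, and bulk RNA of 18 libraries was sequenced, 3 libraries in each of 6 groups. The vehicle control received 100 µM ascorbic acid, which every other group received too. The dopamine group received 1 µM dopamine in this vehicle, and the cocaine group received 1 µM cocaine in it. A second set of 3 groups (control, dopamine and cocaine with inhibitor) had 100 µM acetylcysteine, the inhibitor of reactive oxygen species, added before dosing.

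All 18 libraries came from a single cell line, although the design text speaks of more than one line. Nothing in the labels states that the 3 libraries of each group were grown as separate cultures. Each p-value below therefore measures only the spread between these libraries, which may be technical. Library totals ran from 23789195 to 30327891 reads. The organoids carried strong neuronal expression: 8 pan-neuronal genes summed to between 5633 and 7667 TPM (a level scaled to library size and transcript length) in the 18 libraries. GAD1, an enzyme of GABA synthesis, averaged 261 TPM in the controls. NKX2-1, a factor of the ventral forebrain, was low, between 0.10 and 4.10 TPM. The pluripotency genes POU5F1, NANOG and LIN28A together summed to at most 1.66 TPM.

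Mitochondrial ribosomes translate the few proteins encoded by mitochondrial DNA, all of them subunits of the respiratory chain and the ATP synthase. Their RNA comes from the mitochondrial genome, while every one of their proteins is encoded in the nucleus, made on cytosolic ribosomes and imported. Some of these proteins have relatives in the bacterial ribosome, and others were added during the evolution of mitochondria. Neurons depend on respiration, and inherited defects of these proteins are known causes of brain, heart and other disease in humans.

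All 77 genes were expressed in every library. The lowest read count of any of them in any library was 97, the median was 548.5 and the highest was 5254. The median gene averaged 50.5 TPM over the 18 libraries, beside 15.1 TPM for the median of all genes tested. On this scale, which allows levels to be compared between genes, 64 of the 77 genes lay between 25 and 100 TPM, 7 lay above 100 and 6 lay under 25. The 5 highest genes made up 16.8% of the summed level, and the ratio of the highest to the lowest gene was 12.8.

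MRPS21, a small-subunit protein with a bacterial relative, was highest, with an average of 195 TPM and a range over the 18 libraries of 179 to 210 TPM. MRPL51, a mitochondrion-specific protein of the large subunit, followed at 149 TPM (range 124 to 164). MRPS6, a small-subunit protein with a bacterial relative, averaged 136 TPM (range 127 to 147). The ranges show that MRPS21 stood clear of every other member, while those of MRPL51 and MRPS6 overlapped. At the other end, MRPL23 averaged 17.1 TPM, MRPL19 15.7 TPM and MRPL22 15.3 TPM. These 3 large-subunit proteins all have bacterial relatives, and their ranges overlapped one another.

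**Figure D1:**
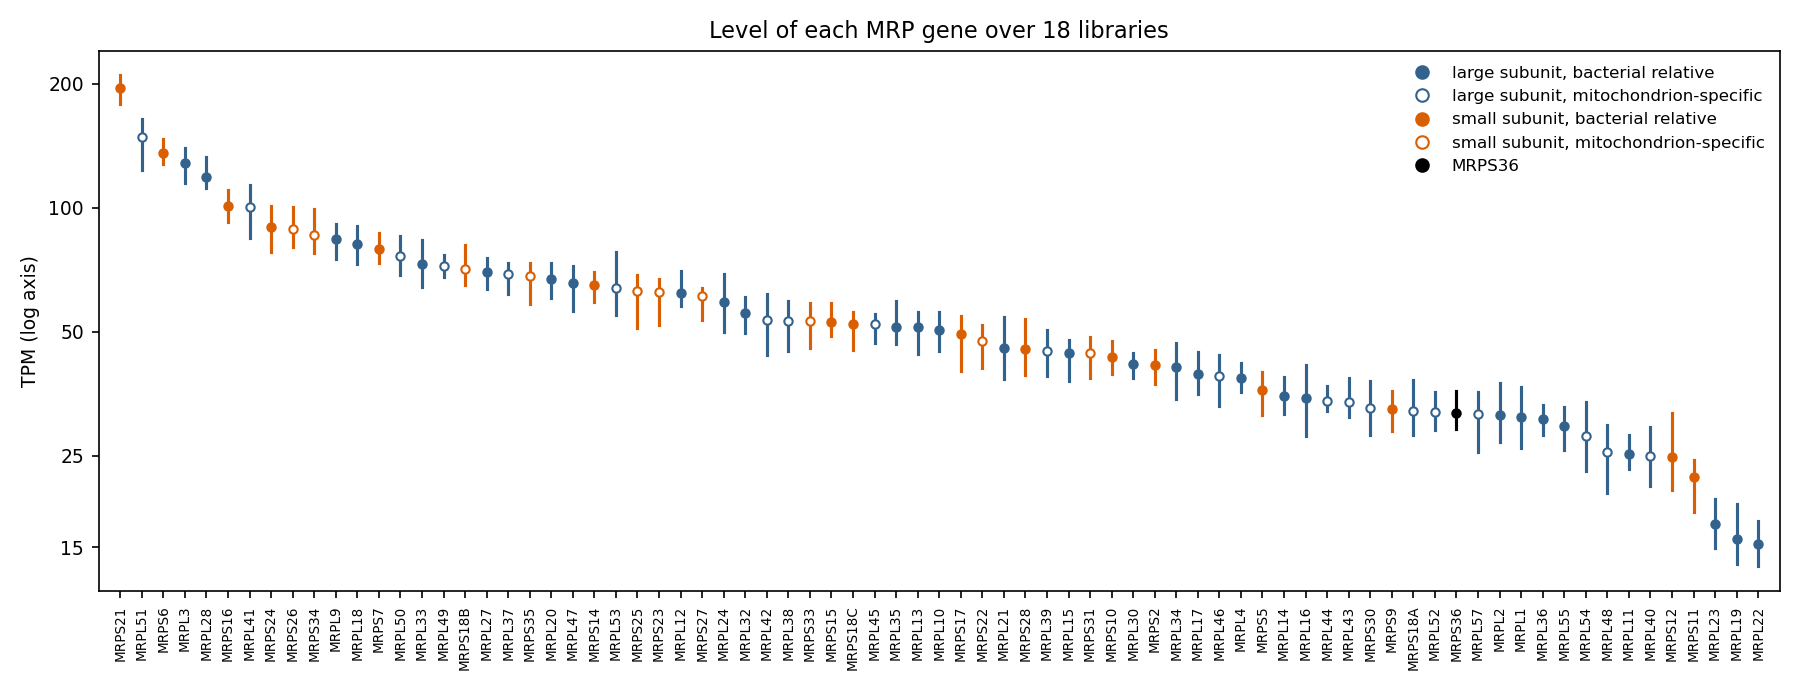
Level of each of the 77 genes in TPM on a log axis, ordered by the mean over 18 libraries. Points are means and vertical lines run from the lowest to the highest library; colour gives the subunit, and filled points mark proteins with a bacterial relative. MRPS21 stands alone at 195 TPM, and MRPL23, MRPL19 and MRPL22 lie lowest at 15.3 to 17.1 TPM.

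Small-subunit genes had a median level of 57.0 TPM (n = 26) and large-subunit genes one of 44.6 TPM (n = 50). Within the small subunit the 10 mitochondrion-specific proteins had a median of 62.7 TPM and the 16 with a bacterial relative 50.8 TPM. In the large subunit the order was the other way, with 41.9 TPM for 20 mitochondrion-specific proteins and 44.99 TPM for 30 with a bacterial relative. These medians are descriptions and were not tested.

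MRPL10 and MRPL12 form the stalk that recruits translation factors, and they averaged 50.5 and 61.9 TPM. MRPS12, which lines the decoding centre, averaged 24.8 TPM and was among the 6 members under 25 TPM. MRPL45, which faces the inner membrane beside the exit of the tunnel, averaged 52.1 TPM, and MRPL44, which resembles ribonuclease III, averaged 33.9 TPM. MRPS18A, MRPS18B and MRPS18C, paralogs of the bacterial S18 protein, occupy different places in the human particle. In the classes above, MRPS18A and MRPS18B were counted as mitochondrion-specific. MRPS18B was highest of them at 71.2 TPM (range 64.7 to 81.3), MRPS18C lay at 52.2 TPM (range 45.2 to 55.8), and MRPS18A, which sits in the large subunit, lay at 32.1 TPM (range 28.0 to 38.2). Their ranges did not overlap, so the order held in each of the 18 libraries.

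Expression was steady between libraries. The coefficient of variation within groups (the pooled SD of the 6 groups over the mean) had a median of 5.58% over the 77 genes and ran from 3.05% to 10.4%. The median over the 10859 tested genes with at least 10 TPM was 6.28%. Over all 18 libraries MRPL49 varied least, at 3.46%, with 67.8 TPM in the lowest library and 76.9 TPM in the highest. MRPS27 (3.75%) and MRPS10 (3.95%) came next. The most variable were MRPL54 at 11.9%, MRPS12 at 11.1% and MRPL2 at 9.94%. MRPS12 held 185 to 330 reads per library and MRPL49 1000 to 1356. Noise from counting few reads was not separated from variation in expression. MRPL54, a mitochondrion-specific protein of the large subunit, ranged from 22.9 to 33.7 TPM, on only 97 to 146 reads per library. Its 3 libraries of dopamine with inhibitor, at 30.5, 33.7 and 32.7 TPM, were high, as were the third libraries of control with inhibitor (33.1 TPM) and of cocaine (32.9 TPM).

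The 77 genes were scattered over 21 chromosomes, with at most 8 on one (GENCODE 44 annotation of GRCh38). Of the 77, 17 genes (22.1%) started within 1000 bases of another protein-coding gene that runs the opposite way, compared with 8.3% of 19396 protein-coding genes. The median distance in these pairs was 77 bases. MRPL46 and MRPS11 formed such a pair with each other on chromosome 15, 63 bases apart. MRPL47 faced NDUFB5 and MRPL36 faced NDUFS6, both subunits of respiratory complex I, each over 41 bases. MRPS12 faced SARS2, the mitochondrial seryl-tRNA synthetase, over 181 bases.

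RefSeq promoter sequences of GRCh38.p14, covering 250 bases before and 50 bases after the gene start, were at hand for 68 of the 77 genes. Short words known as binding motifs of factors that act on nuclear genes of mitochondria, or on growth genes, were searched on both strands. The ETS word CCGGAAG, bound by GABPA and its relatives, was present in 29 of the 68 genes (42.647%), against 16.526% of 15842 protein-coding genes. The YY1 word AAGATGGCG was present in 13 genes (19.118%, against 3.207%), and it started at or after the gene start in 10 of them. The NRF1 word, GCGCA and GCGC with any 1 base between them, occurred in 9 genes (13.235%, against 9.664%), and the E-box CACGTG in 9 genes (13.235%, against 10.901%). At least one of the NRF1, ETS and YY1 words was found in 44 genes (64.706%, against 25.944%). The ETS and YY1 words can share the letters AAG, but they overlapped in 0 of the 68 genes. Such a match describes the letters and is no evidence of binding.

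The stretches below are the 150 bases before the RefSeq start of 5 genes that recur in the comparisons, or that stand out in level, with the matched word in capitals, in the direction of transcription. MRPL3 (chr3:131502972-131503121, minus strand), MRPL43 (chr10:100987498-100987647, minus strand) and MRPL53 (chr2:74472681-74472830, minus strand) are 3 of the genes called under cocaine. MRPS21 (chr1:150293711-150293860, plus strand) was the highest member, and MRPS9 (chr2:105037919-105038068, plus strand) had low p-values in several comparisons. Capitals mark the ETS word in the first 4 sequences and the NRF1 word in MRPS9; in MRPS21 and MRPS9 the word lies on the opposite strand and is read here as its reverse complement.
MRPL3: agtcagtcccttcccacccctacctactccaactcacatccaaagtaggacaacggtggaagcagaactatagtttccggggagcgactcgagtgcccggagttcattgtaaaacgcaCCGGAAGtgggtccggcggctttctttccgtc
MRPL43: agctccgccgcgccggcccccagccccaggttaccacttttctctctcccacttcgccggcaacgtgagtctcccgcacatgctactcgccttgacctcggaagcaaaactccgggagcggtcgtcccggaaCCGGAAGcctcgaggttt
MRPL53: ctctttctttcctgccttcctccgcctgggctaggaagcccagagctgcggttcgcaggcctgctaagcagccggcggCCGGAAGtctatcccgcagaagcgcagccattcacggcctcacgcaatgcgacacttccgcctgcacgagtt
MRPS21: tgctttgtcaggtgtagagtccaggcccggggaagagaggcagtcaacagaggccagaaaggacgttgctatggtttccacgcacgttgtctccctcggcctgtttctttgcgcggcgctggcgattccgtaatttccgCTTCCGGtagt
MRPS9: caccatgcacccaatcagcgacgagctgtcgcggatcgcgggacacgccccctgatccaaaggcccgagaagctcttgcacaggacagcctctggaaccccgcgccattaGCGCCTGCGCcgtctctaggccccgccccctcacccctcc

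The ETS word began 32 bases before the start in MRPL3, 18 in MRPL43, 11 in MRPS21 and 72 in MRPL53. Beyond the stretches shown, MRPS21 and MRPL53 each held another ETS word on the opposite strand, 7 bases after the start and at the start. Of the other 2 genes called under cocaine over both inhibitor states, MRPL51 held the ETS word 119 and 104 bases before its start, and MRPS24 held no ETS word but a YY1 word 19 bases after its start. Whether the called genes differ from the other members in these words was not tested.

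Summed over the 77 genes, the level was nearly the same in all 18 libraries, between 4218 and 4428 TPM, a ratio of 1.05. It took 0.195% to 0.209% of the reads. The controls summed to 4241 ± 25.8 TPM (SD, n = 3), the dopamine group to 4371 ± 49.6 TPM and the cocaine group to 4348 ± 7.00 TPM, and neither treated group overlapped the controls. This was a difference of 3.06% for dopamine and 2.51% for cocaine, beside spreads within the groups of 0.932% and 0.445%. In bulk RNA a change in the number of cells of a type and a change in RNA per cell cannot be told apart.

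Control with inhibitor summed to 4350 ± 69.2 TPM, dopamine with inhibitor to 4341 ± 75.7 TPM and cocaine with inhibitor to 4290 ± 30.7 TPM. The inhibitor alone lay 2.56% above the control without it, beside a spread within the groups of 1.23%. Its lowest library, at 4271 TPM, lay just above the highest control, at 4269 TPM. A sum above the controls was therefore not limited to the drug groups, and the differences with inhibitor are taken from this higher control. With the inhibitor in both arms the dopamine group thus lay 0.210% under its control and the cocaine group 1.38% under it, beside spreads within the groups of 1.67% and 1.23%. On read counts scaled by library size rather than TPM, the cocaine differences were larger without inhibitor (3.68%) and of the other sign with it (0.638%). On the same scale dopamine without inhibitor lay 2.38% above the control, and its libraries overlapped the controls. The inhibitor alone lay 1.41% above the control on this scale. No p-value is given for these sums.

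**Figure D2:**
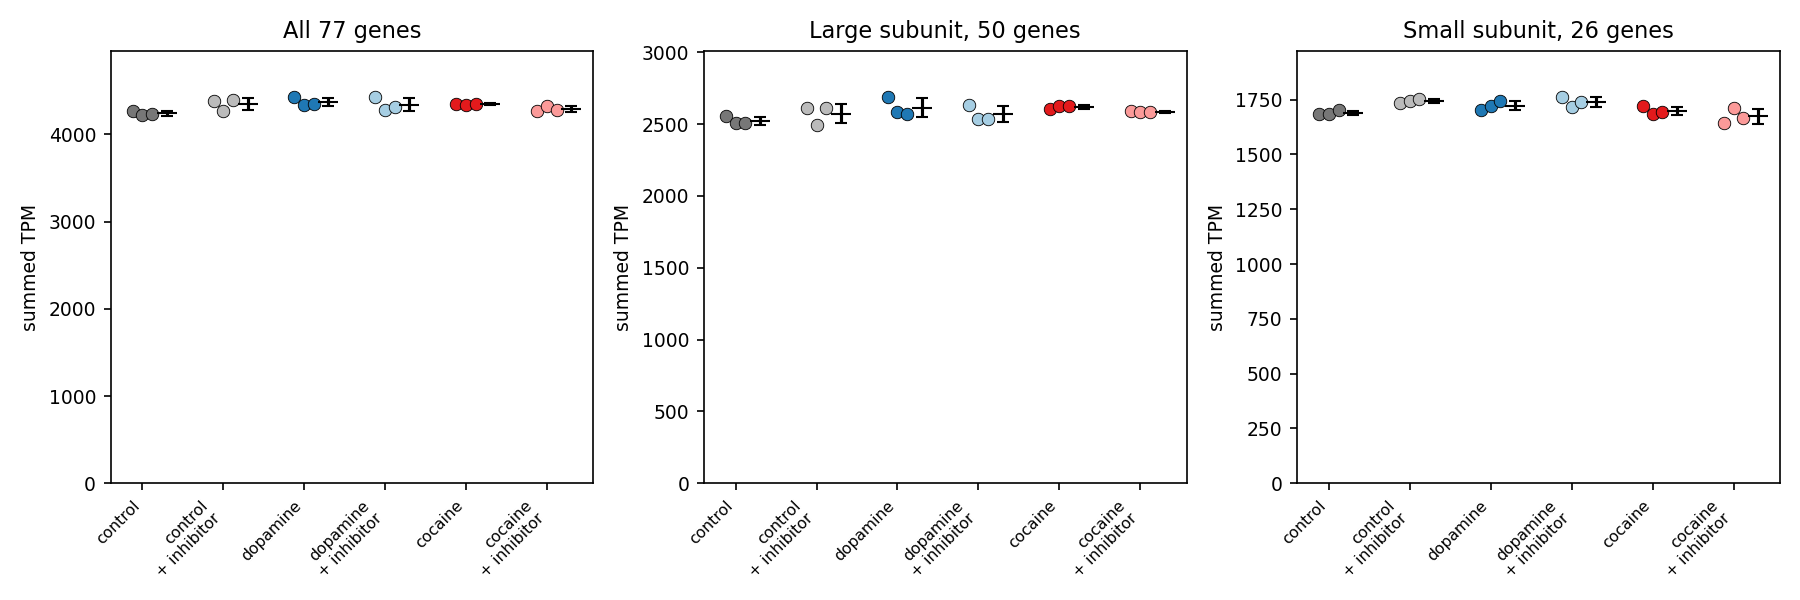
Summed TPM of all 77 genes, of the 50 large-subunit genes and of the 26 small-subunit genes in each library, with the axis starting at 0. Points are libraries, and bars give the group mean and SD of 3 libraries; the 18 sums over all genes lie between 4218 and 4428 TPM.

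Among the groups without inhibitor, cocaine changed 1 of the 77 genes. MRPL3, a large-subunit protein with a bacterial relative that lies near the peptidyl transferase centre, read 58.7, 55.5 and 58.6 CPM (reads scaled to library size with the trimmed mean of M-values, TMM) in the 3 controls. In the 3 cocaine libraries it read 65.7, 64.8 and 68.6 CPM. All 3 cocaine libraries lay above all 3 controls. The log2 fold change was 0.20 (SE 0.05), or 15.3%, with an adjusted p of 0.0328 in edgeR's quasi-likelihood test with Benjamini-Hochberg adjustment over the 18913 genes. Of all genes tested, 1.73% were called higher and 2.59% lower in this comparison, so 1 of 77 (1.3%) is no more than the background share. DESeq2 called 2 of the 77 and limma-voom 1. The share of all genes called by these tools was not counted, here or in the comparisons below.

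The MRPL3 call depended on single libraries. It was lost without control 1 (adjusted p = 0.119), control 2 (0.116), control 3 (0.0668), cocaine 2 (0.0651) or cocaine 3 (0.196), where edgeR's test was rerun on the remaining libraries. Over all 13 alternative fits the adjusted p ran from 0.00602 to 0.196, while the log2 fold change stayed between 0.16 and 0.22.

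The next genes by p-value were MRPL51 and MRPS7. MRPL51 read 25.8, 27.7 and 23.1 CPM under vehicle and 30.2, 30.5 and 31.3 CPM with cocaine. Its groups did not overlap, and its log2 difference of 0.26 (SE 0.08) did not pass edgeR's test (adjusted p = 0.0623). MRPS7, a small-subunit protein with a bacterial relative, read 30.2, 29.8 and 30.7 CPM under vehicle and 33.8, 33.2 and 33.9 CPM with cocaine. These groups did not overlap either, with a log2 difference of 0.15 (SE 0.05, adjusted p = 0.0773, edgeR).

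As a set the values leaned to the higher side. The log2 difference was positive in 65 of the 77 genes, with a median of 0.085, beside a median of 0.0055 over all genes tested. The members are short, as described below. All genes in the shortest of 10 equal groups by length had a median of 0.092, with 66.2% positive. The cocaine libraries lay wholly above the controls in 24 of the 77 genes (31.2%) and wholly below them in 1, against 16% and 16.3% of all genes. At an unadjusted p under 0.05 in edgeR, 10 of the 77 (13%) were higher and 0 lower, against 11.3% and 11.8% of all genes. The extremes, named after their values were seen, were MRPL53 at 0.27 (SE 0.10, adjusted p = 0.134) and MRPS25 at -0.15 (SE 0.08, adjusted p = 0.281). The 95% interval reached a 1.5-fold difference in 0 of the 77 genes.

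Other contents of the organoids moved in the same comparison, and their part in these values was not tested. The cocaine libraries had 281 to 448 summed TPM of the 8 cycling genes and the controls 219 to 251 TPM, with PCNA the 1 called gene (log2 fold change 0.42, SE 0.10, adjusted p = 0.0319, edgeR). The 10 interneuron and ventral forebrain genes summed to 294 to 450 TPM with cocaine and to 585 to 671 TPM in the controls, and 3 of the 9 tested were lower. The 8 pan-neuronal genes summed to 5633 to 6360 TPM with cocaine and 6988 to 7407 TPM in the controls, with DCX and MAPT called lower. Choroid plexus genes were uneven, from 231 to 960 TPM in the cocaine libraries and from 70.4 to 201 TPM in the controls. Without the third cocaine library the median log2 difference of the 77 genes was 0.07 and 0 genes were called. The MRPL3 call was also lost without several other libraries, as listed above.

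Averaged over both inhibitor states, which doubled the libraries on each side of the comparison, 5 of the 77 genes rose with cocaine and 0 fell. This is 6.49% of the members beside 6.95% of all genes called higher and 7.16% called lower, a share near the background. At an unadjusted p under 0.05 in edgeR 13 were higher and 2 lower, against 14.7% and 15% of all genes. DESeq2 and limma-voom called 5 each, with their shares of all genes not counted. All 5 encode ribosomal proteins, 4 of the large subunit and 1 of the small.

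MRPL43, a mitochondrion-specific protein of the large subunit, averaged 27.7 ± 1.43 CPM in the controls, 29.4 ± 0.606 with cocaine, 26.5 ± 0.663 in the controls with inhibitor and 31.7 ± 0.606 in cocaine with inhibitor (SD, n = 3 each). Its cocaine libraries overlapped the controls without inhibitor, where the second control read 29.4 CPM, and stood clear of them with inhibitor. The log2 fold change was 0.17 (SE 0.04), with an adjusted p of 0.0122 in edgeR. This call was retained in all 18 alternative fits (adjusted p 0.00473 to 0.0412).

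MRPL51 rose by 0.21 on the log2 scale (SE 0.06, adjusted p = 0.0198, edgeR). Its 3 cocaine libraries with inhibitor read 30.6, 25.6 and 31.2 CPM, and the second of them overlapped the matching controls at 26.04, 24.8 and 27.5 CPM. MRPL3 rose by 0.13 (SE 0.04, adjusted p = 0.0235, edgeR). With inhibitor it averaged 63.5 ± 3.69 CPM under cocaine and 61.4 ± 0.395 CPM in the control, where the groups overlapped.

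MRPS24, a small-subunit protein with a bacterial relative, averaged 16.4 ± 1.56 CPM in the controls, 18.9 ± 0.718 with cocaine, 16.0 ± 0.582 in the controls with inhibitor and 18.0 ± 0.805 in cocaine with inhibitor. The cocaine group lay above its control in both inhibitor states. The log2 fold change was 0.19 (SE 0.05, adjusted p = 0.0259, edgeR). MRPL53, a mitochondrion-specific protein of the large subunit, read 11.5, 12.2 and 14.8 CPM with cocaine against 10.5, 10.6 and 10.9 CPM in the controls. The third cocaine library was far the highest for this gene, and the log2 fold change over both inhibitor states was 0.24 (SE 0.07, adjusted p = 0.0393, edgeR).

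Single libraries decided most of these calls. The number of called members fell from 5 to 1 without cocaine 3, to 2 without control 2, control with inhibitor 2 or cocaine with inhibitor 1, and to 3 without control 1, control 3 or cocaine with inhibitor 3. It went up to 9 without cocaine with inhibitor 2. How many of all genes were called in each of these fits was not counted. The libraries cocaine 3 and cocaine with inhibitor 1 had the highest sums of cycling genes, 448 and 473 TPM. Control 2 and control with inhibitor 2, whose removal lowered the count to 2, summed to 244 and 201 TPM. Of the 8 cycling genes, 6 were called higher with cocaine over both inhibitor states. Their part in the calls of the members was not tested.

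**Figure D3:**
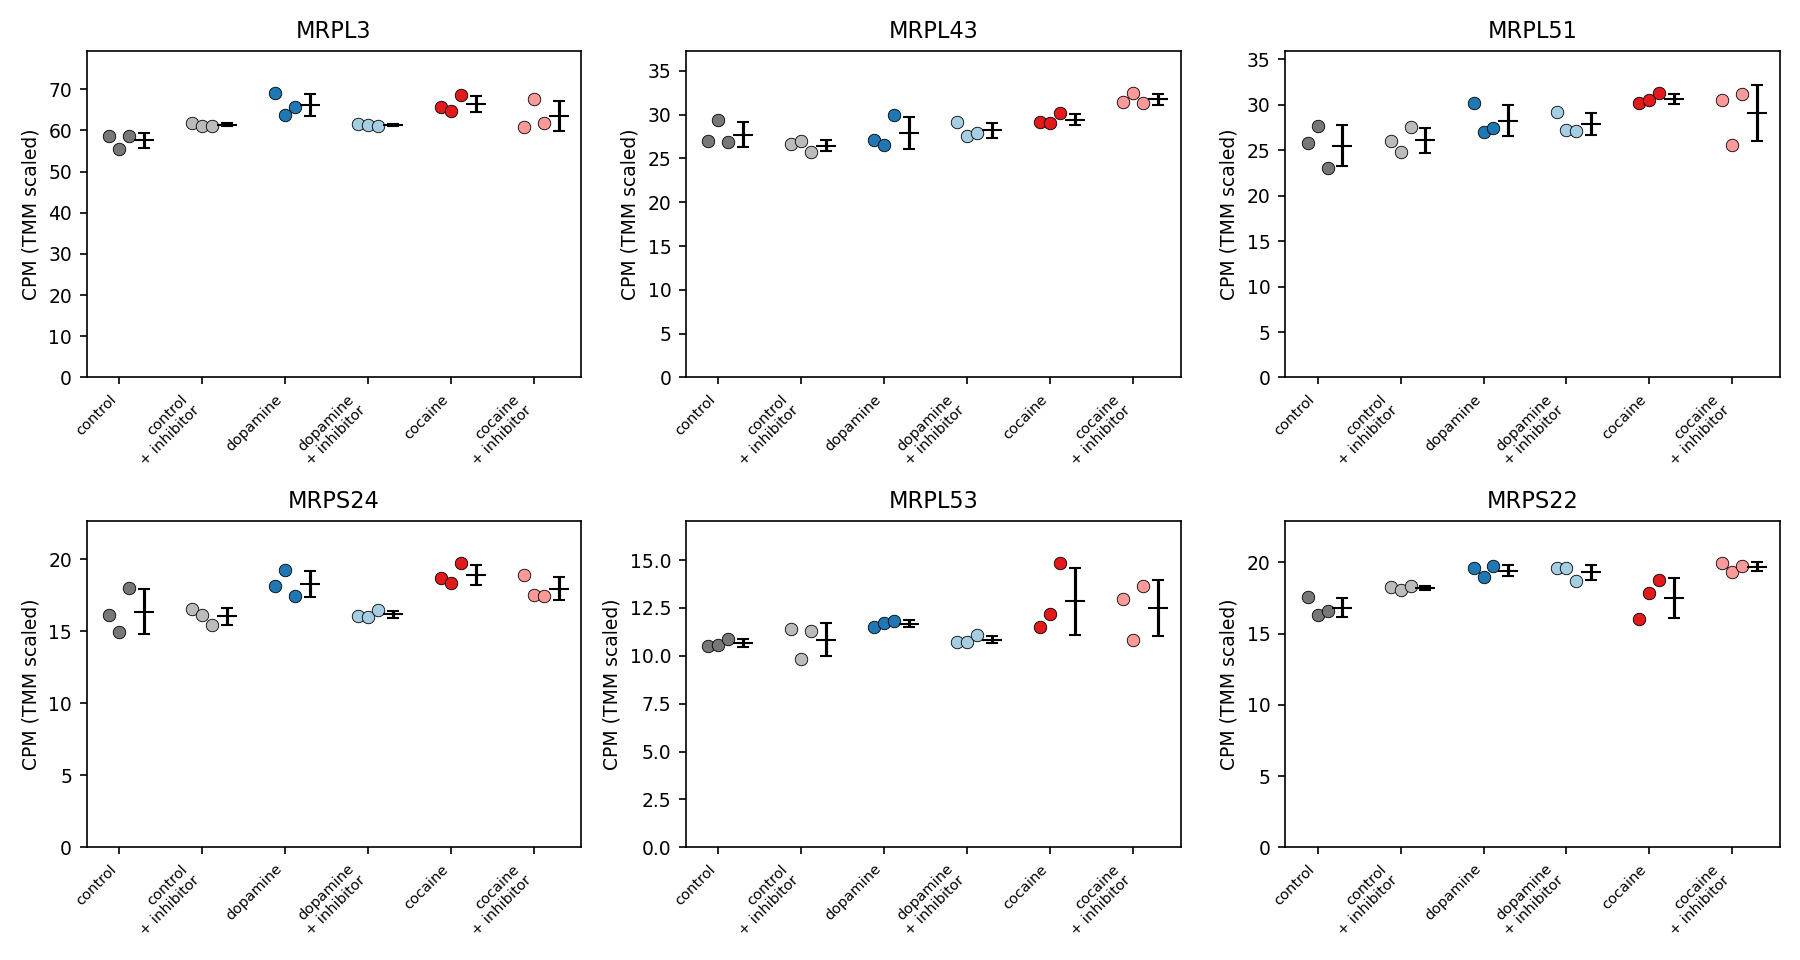
TMM-scaled CPM of 6 genes in each library by group, with axes starting at 0; bars give the group mean and SD of 3 libraries. MRPL3, MRPL43, MRPL51, MRPS24 and MRPL53 were called higher with cocaine over both inhibitor states, and MRPS22 had the lowest p-value for dopamine over both states.

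Dopamine against the vehicle control gave 0 called members in edgeR, where 0.555% of all genes were higher and 0.148% lower. DESeq2 called 1 (MRPL3) and limma-voom called 0. At an unadjusted p under 0.05, 9 of the 77 (11.7%) were higher and 0 lower, against 7.12% and 6.94% of all genes. MRPL3 had the lowest p-value. It read 69.0, 63.8 and 65.7 CPM with dopamine, all above the 55.5 to 58.7 CPM of the controls, a log2 difference of 0.20 (SE 0.05, adjusted p = 0.0702, edgeR; 0.0132 to 0.271 over 13 alternatives).

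MRPS22, a mitochondrion-specific protein of the small subunit, read 17.6, 16.3 and 16.6 CPM under vehicle and 19.6, 19.0 and 19.7 CPM with dopamine. The groups did not overlap, and the log2 difference was 0.21 (SE 0.07, adjusted p = 0.147, edgeR). MRPS9, a small-subunit protein with a bacterial relative, read 18.5, 17.6 and 17.6 CPM under vehicle and 21.1, 21.4 and 20.3 CPM with dopamine. These groups were also apart, with a log2 difference of 0.22 (SE 0.07, adjusted p = 0.162, edgeR). Over the set the difference was positive in 56 of 77 genes with a median of 0.065, beside -0.0028 over all genes. All genes in the shortest of 10 equal groups by length had a median of 0.041, with 59.0% positive. Of the 77, 16 (20.8%) lay wholly above the controls and 2 wholly below, against 12.2% and 11.8% of all genes. In the same comparison the 10 interneuron and ventral forebrain genes summed to 419 to 534 TPM with dopamine and 585 to 671 TPM in the controls, and their part in these values was not tested.

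Averaged over both inhibitor states, dopamine gave 0 called members in edgeR, DESeq2 and limma-voom (0.661% of all genes higher, 0.159% lower). At an unadjusted p under 0.05 there were 8 higher and 0 lower, against 5.65% and 5.19% of all genes. MRPS22 led with a log2 difference of 0.14 (SE 0.05, adjusted p = 0.201, edgeR), followed by MRPL3 at 0.10 (SE 0.04, adjusted p = 0.258) and MRPS12 at 0.22 (SE 0.08, adjusted p = 0.295).

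The inhibitor alone, acetylcysteine in the vehicle against the vehicle, gave 0 called members in edgeR, DESeq2 and limma-voom, and edgeR called 0% of all genes in either direction. At an unadjusted p under 0.05, 4 of the 77 were higher and 0 lower, against 2.89% and 2.83% of all genes. The inhibitor libraries lay wholly above the controls in 10 of the 77 and wholly below in 3, against 5.5% and 5.52%. MRPS26, a mitochondrion-specific protein of the small subunit, read 23.1, 22.8 and 25.5 CPM under vehicle and 25.4, 28.1 and 28.3 CPM with the inhibitor. The first inhibitor library fell within the range of the controls, and the log2 difference was 0.20 (SE 0.07, adjusted p = 0.831, edgeR). MRPS9 (0.18, SE 0.07, adjusted p = 0.864) and MRPL57 (0.16, SE 0.07, adjusted p = 0.866) came next in edgeR. MRPL57, a large-subunit protein, lay higher in all 3 inhibitor libraries than in any control. The median over the 77 genes was 0.022, with 49 positive.

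With the inhibitor present in both arms, dopamine gave 0 called members in all 3 tools (0.00529% of all genes higher, 0% lower in edgeR), and at an unadjusted p under 0.05 there were 0 higher and 1 lower, against 3.01% and 2.57% of all genes. The groups did not overlap in 9 of the 77, with 6 higher and 3 lower, against 5.81% and 4.41%. The gene with an unadjusted p under 0.05 was MRPS5, a small-subunit protein with a bacterial relative, at 38.04, 38.5 and 38.03 CPM in the controls with inhibitor and 36.3, 31.1 and 33.4 CPM in dopamine with inhibitor. The groups did not overlap, with a log2 difference of -0.18 (SE 0.07, adjusted p = 0.824, edgeR). MRPS12 (0.24, SE 0.12, adjusted p = 0.906) and MRPS10 (0.10, SE 0.05, adjusted p = 0.906) came next in edgeR, both with groups that did not overlap. The median of the 77 genes was 0.0036, with 41 positive and 36 negative.

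Cocaine with the inhibitor in both arms gave 0 called members in edgeR and limma-voom and 1, MRPL43, in DESeq2 (edgeR called 0.0159% of all genes higher and 0.00529% lower). At an unadjusted p under 0.05 in edgeR, 3 members were higher and 3 lower, against 8.38% and 8.27% of all genes. The groups did not overlap in 4 members higher and 5 lower, against 7.89% and 8.75%. MRPL43 read 26.7, 27.0 and 25.7 CPM in the controls with inhibitor and 31.4, 32.4 and 31.3 CPM in cocaine with inhibitor. This was a wide gap for a member, with a log2 difference of 0.26 (SE 0.06), and it did not pass edgeR's test (adjusted p = 0.104; 0.0215 to 0.467 over 13 alternatives, called in 2 of them). MRPS35, a mitochondrion-specific protein of the small subunit, read 37.9, 40.1 and 38.9 CPM in the controls with inhibitor and 36.0, 35.5 and 32.5 CPM in cocaine with inhibitor. Its groups did not overlap, and the log2 difference was -0.17 (SE 0.06, adjusted p = 0.182, edgeR). MRPS28 came next, with groups that overlapped (-0.22, SE 0.10, adjusted p = 0.280, edgeR). The members' median was 0.014, with 47 of 77 positive.

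**Figure D4:**
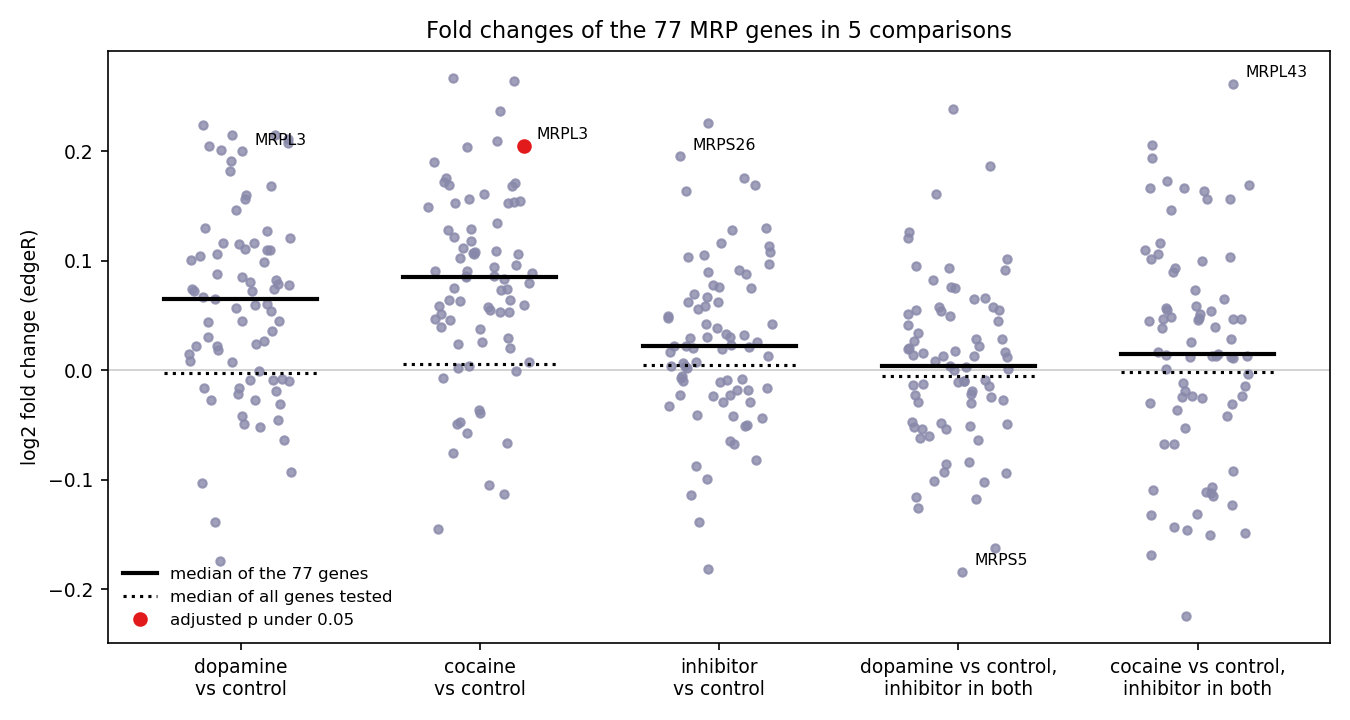
Log2 fold change of each of the 77 genes in 5 comparisons, from edgeR. Solid lines are the medians of the 77 genes and dotted lines those of all genes tested; the gene named in each column has the lowest p-value, and the red point is MRPL3 in cocaine against control (adjusted p = 0.0328, edgeR).

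Whether the inhibitor changed the response to either drug was tested as an interaction, and no member was called by edgeR, DESeq2 or limma-voom. For dopamine, edgeR called 0% of all genes higher and 0.00529% lower, and 0 members were higher and 5 lower at an unadjusted p under 0.05, against 4.55% and 3.81% of all genes. The median over the members was -0.061, beside -0.0044 over all genes, and -0.038 after the trend with transcript length described below was removed. A negative value stands for a smaller dopamine difference with the inhibitor than without, and the set was not tested as a whole. MRPS5 led at -0.29 (SE 0.10, adjusted p = 0.484, edgeR), then MRPL3 at -0.20 (SE 0.07, adjusted p = 0.496) and MRPS28, a small-subunit protein, at -0.34 (SE 0.14, adjusted p = 0.559). For cocaine, edgeR called 0% of all genes in either direction, and 1 member was higher and 8 lower at an unadjusted p under 0.05, against 2.4% and 2.86% of all genes. The median over the members was -0.067, beside -0.00048 over all genes, and -0.014 with the length trend removed. The genes with the lowest p-values were MRPS9 at -0.28 (SE 0.10, adjusted p = 0.918, edgeR), MRPS26 at -0.26 (SE 0.10, adjusted p = 0.918) and MRPS28 at -0.35 (SE 0.14, adjusted p = 0.918). The typical 95% interval of a member in these tests reached 0.23 to either side on the log2 scale, wider than the members' median drug differences of 0.065 and 0.085, so interactions of that size were not detectable here.

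The inhibitor added to dopamine gave 0 called members in all 3 tools (edgeR 0% of all genes higher, 0.00529% lower), with 1 higher and 4 lower at an unadjusted p under 0.05 (4.43% and 4.24% of all genes). Groups did not overlap in 2 members higher and 5 lower (7.65% and 7.47% of all genes). MRPL30 had the lowest p, at -0.14 (SE 0.05, adjusted p = 0.524, edgeR), followed by MRPS5 at -0.17 (SE 0.07, adjusted p = 0.541) and MRPS24 at -0.18 (SE 0.07, adjusted p = 0.541). The inhibitor added to cocaine gave 0 as well (0% of all genes in either direction), with 1 higher and 2 lower at an unadjusted p under 0.05 (1.79% and 1.42% of all genes). Groups did not overlap in 3 members higher and 9 lower (4.19% and 3.75% of all genes). MRPS7 read 33.8, 33.2 and 33.9 CPM with cocaine and 29.7, 29.5 and 30.8 CPM in cocaine with inhibitor, where the vehicle controls read 29.8 to 30.7 CPM. The log2 difference was -0.17 (SE 0.05), and it did not pass the test (adjusted p = 1.00, edgeR). MRPL23 at -0.24 (SE 0.08) and MRPS22 at 0.17 (SE 0.07) came next, with the same adjusted p. Averaged over all 3 drug states the inhibitor gave 0 called members in all 3 tools (0% of all genes), with 1 higher and 3 lower at an unadjusted p under 0.05 (2.66% and 2.11%), and MRPS7 had the lowest p there too, at -0.09 (SE 0.03, adjusted p = 0.982, edgeR), followed by MRPL23 at -0.14 (SE 0.05, adjusted p = 0.982) and MRPS22 at 0.09 (SE 0.04, adjusted p = 0.995). These comparisons share libraries with those above and are not independent of them.

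Cocaine compared directly with dopamine gave 0 called members in all 3 tools (edgeR 0% of all genes), with 2 higher and 1 lower at an unadjusted p under 0.05 (5.94% and 5.82% of all genes). Groups did not overlap in 10 members higher and 9 lower (10% and 10.3% of all genes). MRPL9, a large-subunit protein with a bacterial relative, led at 0.18 (SE 0.06, adjusted p = 0.343, edgeR), followed by MRPL23 at 0.20 (SE 0.08, adjusted p = 0.377) and MRPS22 at -0.15 (SE 0.07, adjusted p = 0.400). With the inhibitor in both arms edgeR and limma-voom called 0 and DESeq2 1, MRPL42 (edgeR 0% of all genes), with 5 higher and 3 lower at an unadjusted p under 0.05 (8.88% and 7.68%). Groups did not overlap in 7 members higher and 4 lower (8.47% and 8.6%). MRPL42, a mitochondrion-specific protein of the large subunit, read 39.7, 44.04 and 45.8 CPM in dopamine with inhibitor and 57.6, 46.5 and 51.6 CPM in cocaine with inhibitor. The groups did not overlap, with a log2 difference of 0.26 (SE 0.07, adjusted p = 0.153, edgeR). MRPL9 at 0.20 (SE 0.06, adjusted p = 0.175) and MRPL19 at 0.28 (SE 0.09, adjusted p = 0.186) came next. Without cocaine with inhibitor 2, edgeR called 3 members: MRPL42 (adjusted p = 0.0182), MRPL9 (0.0354) and MRPL19 (0.0380). Over all their alternatives the adjusted p ran up to 0.538, 0.581 and 0.601. The share of all genes called without cocaine with inhibitor 2 was not counted.

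Transcript length moved with the drug comparisons, and the members are short. Their median transcript was 0.360 of the length of the median tested gene, 91.4% of tested genes were longer, and 64 of the 77 fell in the 3 shortest of 10 equal groups by length. With cocaine, the median log2 difference over all genes went from 0.09 in the shortest group to -0.06 in the longest. With dopamine it went from 0.04 to -0.03. In cocaine against control, 44 of the 77 members exceeded the median of their own length group, and the median difference from it over all 77 was 0.02. In dopamine against control 52 did so, and the median difference over all 77 was 0.03. After the trend with length was removed from the counts, the members' median was 0.018 for cocaine (44 of 77 positive, 0 called) and 0.035 for dopamine (51 positive, 0 called). Over both inhibitor states only MRPL43 was still called with cocaine, with a median over the members of 0.0042. Of 17846 genes in these fits, 157 were called higher and 223 lower for cocaine against control, and 124 and 27 for dopamine. For cocaine over both inhibitor states the counts were 1348 higher and 1212 lower. The source of the length trend was not tested.

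**Figure D5:**
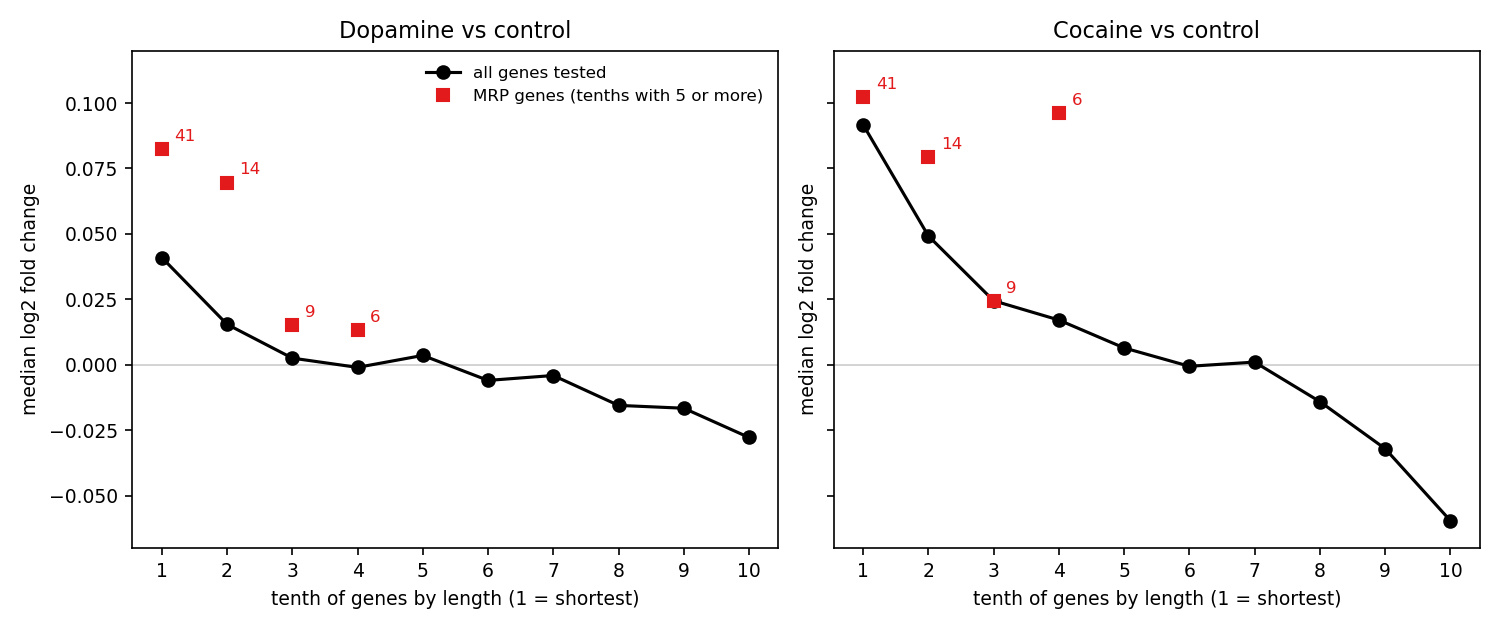
Median log2 fold change of all tested genes (black) and of the MRP genes (red, where a group holds at least 5, with their number) in 10 equal groups by transcript length, for dopamine and cocaine against control. The black line falls from 0.09 in the shortest group to -0.06 in the longest under cocaine, where the 41 MRP genes of the shortest group have a median of 0.10. Under dopamine these 41 have a median of 0.08 and all genes of that group 0.04.

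Of the 6 ribosomal genes with other symbols, DAP3, AURKAIP1, CHCHD1, PTCD3, GADD45GIP1 and ICT1, 0 were called by edgeR for either drug, with medians of 0.07 for cocaine and 0.06 for dopamine. DAP3, a GTP-binding protein of the small subunit, held at 102 ± 2.62 TPM in the controls and 101 ± 2.17 TPM with cocaine. ICT1, which releases stalled ribosomes, averaged 22.4 ± 2.18 TPM in the controls and 26.9 ± 4.29 TPM with cocaine (log2 difference 0.31, SE 0.13, adjusted p = 0.152, edgeR). None of the 22 genes of ribosome assembly and rRNA modification, 16 translation factors and 17 aminoacyl-tRNA synthetases were called in dopamine or cocaine against control, and their medians lay between -0.02 and 0.06.

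Averaged over both inhibitor states, MTERF4, an assembly factor of the large subunit, fell with cocaine by 0.19 on the log2 scale (SE 0.04, adjusted p = 0.0120, edgeR), and VARS2, the mitochondrial valyl-tRNA synthetase, fell by 0.14 (SE 0.04, adjusted p = 0.0368). These were the 1 called gene of 22 and the 1 of 17 in their lists, beside 7.16% of all genes called lower. RNR2, the RNA of the large mitochondrial subunit, took 0.760% to 0.785% of the reads under vehicle. Its share was 0.856% to 0.894% in the dopamine group and 0.857% to 0.933% in the cocaine group, with no overlap with the controls. Its log2 difference was 0.19 for cocaine (SE 0.06, adjusted p = 0.0832, edgeR) and 0.17 for dopamine (SE 0.06, adjusted p = 0.198). Over both inhibitor states it rose with cocaine by 0.17 (SE 0.04, adjusted p = 0.0180). RNR1, the RNA of the small subunit, had log2 differences of -0.03 and 0.01 for cocaine and dopamine. The libraries are labelled as polyA RNA, and whether capture of these RNAs differed between groups was not tested.

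Genes that regulate this system were mostly not called. TFAM, which packages mitochondrial DNA, averaged 36.7 ± 0.583 TPM in the controls, 40.9 TPM with dopamine (log2 difference 0.17, SE 0.07, adjusted p = 0.268, edgeR) and 36.5 ± 1.56 TPM with cocaine. POLRMT, the mitochondrial RNA polymerase, averaged 39.2 TPM in the controls and 39.5 TPM with cocaine. PPARGC1A, a coactivator of mitochondrial biogenesis, was low, between 6.70 and 9.58 TPM in the 18 libraries. NRF1 and MYC, transcription factors that act on nuclear genes of mitochondria and on growth genes, had cocaine differences of -0.03 (SE 0.06, adjusted p = 0.779, edgeR) and -0.14 (SE 0.11, adjusted p = 0.465). GABPA, which binds the ETS word, rose with cocaine over both inhibitor states by 0.16 (SE 0.05, adjusted p = 0.0421, edgeR). ESRRG, a nuclear receptor of the same list, fell with cocaine by 0.51 (SE 0.12, adjusted p = 0.0298, edgeR). Over both inhibitor states 6.95% of all genes were called higher with cocaine and 7.16% lower. In cocaine against control the shares were 1.73% and 2.59%. Whether GABPA bears on the members was not tested.

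In the other mitochondrial lists, 1 or 2 genes of each list below rose under cocaine against control, where 1.73% of all genes were called higher and 2.59% lower. Of 34 nuclear genes of oxidative phosphorylation, 1 rose, SDHD of complex II (0.31, SE 0.08, adjusted p = 0.0402, edgeR), with a list median of 0.089, beside 0.085 for the members. Of 13 mitochondrial chaperones and proteases, HSPD1 rose by 0.22 (SE 0.05, adjusted p = 0.0245) and HSPA9 by 0.18 (SE 0.05, adjusted p = 0.0394). HSPA9, the main chaperone of protein import, also rose with dopamine, from 271 ± 2.77 TPM in the controls to 329 TPM (log2 fold change 0.29, SE 0.05, adjusted p = 0.00850, edgeR). Of 21 import genes TOMM6 rose (0.37, SE 0.09, adjusted p = 0.0335), and of 14 genes of mitochondrial DNA transcription and replication MGME1 rose (0.48, SE 0.10, adjusted p = 0.0251).

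The cytosolic ribosome gave a different count. With cocaine, 35 of 50 cytosolic ribosomal protein genes rose and 0 fell against the control, where 1.73% of all genes were called higher and 2.59% lower. The median log2 fold change of the 50 was 0.28, beside 0.085 for the 77 mitochondrial ones. RPL23, one of the 50, averaged 1450 ± 67.6 TPM in the controls and 1832 ± 156 TPM with cocaine. With dopamine 0 of the 50 were called by edgeR and the median was 0.11. Of these genes, 10 were still called with cocaine after the length trend was removed, where 157 of 17846 genes were called higher and 223 lower. The count was 0 without control 1, control 2, cocaine 2 or cocaine 3 and 18 without control 3. Their near-identical copies in the genome make single counts uncertain.

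Reads of some members may be shared with other loci. Exons of 16 members overlap another gene on the same strand and those of 29 one on the opposite strand, in GENCODE 44, and the authors counted them with a strand setting not given in the sources used here. Among the genes called with cocaine, MRPL43 (chr10:100969458-100987515) overlaps SEMA4G and TWNK, the latter listed as C10orf2, and SEMA4G fell over both inhibitor states by 0.17 (SE 0.05, adjusted p = 0.0252, edgeR). MRPL51 (chr12:6491886-6493841) overlaps NCAPD2, a condensin subunit of dividing cells, which rose by 0.40 (SE 0.10, adjusted p = 0.0200). MRPS24 (chr7:43866558-43869893) shares exons with the readthrough gene URGCP-MRPS24, and MRPL53 (chr2:74471982-74472687) overlaps CCDC142. MRPL3 (chr3:131462212-131502983) overlaps an unnamed gene on the other strand.

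Of 105 pseudogene rows with an MRPL or MRPS parent symbol, 102 were at 0 in every library. MRPS31P5 held 579 to 823 reads per library, more than its parent MRPS31 with 436 to 575, so the level of MRPS31 is uncertain. MRPL45P2 held 13 to 37 reads and MRPL42P5 0 to 8. The authors' deposited tables of differential expression, 5 comparisons of 12 to 231 rows with 314 distinct genes, listed 0 of the 77 members.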

How the data were processed

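The deposited raw counts per gene and the deposited TPM values, both made by the authors, were used for 18 bulk RNA libraries. The authors' deposited comparison tables, which hold log2 fold changes, p-values, signed fold scores and the signal of the higher group as its mean, per the file headers, served only to look for the members. The genome build was GRCh38, per the submitters' processing notes. Aligner, counter and strand setting: not given in the sources used here. The members and all gene lists were chosen with earlier results of these data known.

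Counts were fitted once over all 18 libraries with 1 mean per group (edgeR 4.0.16 in R 4.3.3, robust quasi-likelihood F-test, two-sided, TMM, filterByExpr with a minimum count of 10). P-values were adjusted over 18913 genes by Benjamini-Hochberg, and genes under 0.05 were called. Relative lengths were taken from the ratio of counts to TPM. Alternatives were DESeq2 1.42.0, limma-voom 3.58.1, another normalization, other filters, only the compared groups, removal of the length trend (loess span 0.3) and leaving out each library. The scripts were tested on simulated data. No batch is labelled.

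Members named with values were the called ones of each comparison or, with fewer than 3, the 3 with the lowest p; the 3 highest and lowest in level and in variation; and members fixed by role. The extremes of cocaine against control, the paired promoters and the parents of expressed pseudogenes were named after their values were seen. Promoter words were counted in RefSeq sequences, and locations came from GENCODE 44. Library totals were whole sums of the deposited counts; fitted intervals are at the 95% level.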

Additional observations from a re-analysis of the deposited data

How the results depend on the processing

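No paired analysis was possible because the library numbers in the labels are unique to each library and no number is shared between groups. Of 44 pairs of a named member and a comparison, 6 were called, and their 103 alternative fits kept the call in 70 and lost it in 33. The other 38 pairs were not called, and 10 of their 568 alternative fits gained a call. The direction reversed in 0 of the 671 fits. The pairs were picked by their p-values in these same libraries, so this count is no independent check.

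Counts of called members depended on the setting. Shares of all genes called were counted only in the main fit and with the length trend removed. With DESeq2 the member counts were 1 for dopamine against control and 2 for cocaine against control. They were 1 for cocaine with inhibitor in both arms and 1 for cocaine against dopamine with inhibitor in both. Without a filter on low counts, cocaine against control gave 0 and cocaine over both inhibitor states 2. With a mean of at least 5 CPM, dopamine against control gave 1 and cocaine against control 2. With the length trend removed, cocaine against control gave 0 members and 10 cytosolic ribosomal proteins, and cocaine over both states gave 1 member. The same step moved the members' median log2 difference to 0.018 for cocaine against control, 0.0042 for cocaine over both states, -0.0092 for the inhibitor added to cocaine and -0.014 for the cocaine interaction. On TMM-scaled CPM the summed level differed by 3.68% for cocaine against control, 0.638% for the same with inhibitor, 1.27% for cocaine against dopamine and 1.27% for that with inhibitor; the last 3 changed sign from TPM.

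Leaving out 1 library gave 0 to 1 called members for cocaine against control, 1 to 9 for cocaine over both states, 0 to 1 for cocaine with inhibitor in both arms and 0 to 3 for cocaine against dopamine with inhibitor. Shares of all genes called were not counted in these fits. Cytosolic ribosomal proteins called with cocaine ran from 0 to 44. The members' median ran from -0.035 to 0.025 for dopamine with inhibitor in both arms, from -0.062 to -0.010 for the inhibitor added to dopamine and from -0.095 to -0.033 for the dopamine interaction, the lowest values without dopamine with inhibitor 1. With 3 libraries a group, the typical 95% interval of a member reached 0.16 to either side on the log2 scale, which limits what could be detected.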
